A study of Mus musculus with 24 samples.

Results

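The 43 genes described here encode nuclear subunits of oxidative phosphorylation, the pathway by which mitochondria turn the electrons of fuel molecules into ATP. They were taken by symbol from a table of read counts from whole mouse hearts, which held 52724 gene rows, and all 43 were found and passed the filter on low counts. The hearts came from 4 genotypes with 6 sequencing libraries each. FKl/l MHC+ carried floxed Fkbp1a and Cre recombinase driven by the α-myosin heavy chain (αMHC) promoter. FKl/l MCK+ carried floxed Fkbp1a and Cre driven by the muscle creatine kinase (MCK) promoter. MHC CRE Only carried the αMHC-driven Cre without the floxed gene, and FKl/l carried the floxed gene without Cre. The product of Fkbp1a, FKBP12, is an immunophilin, the cellular partner of the drugs FK506 and rapamycin, and it sits on ryanodine receptor calcium channels. Per the study's design text, the promoters differ in the embryonic stage at which Cre appears, which is earlier for αMHC, and in the amount of Cre made. No MCK Cre without the floxed gene was among the genotypes. Each genotype had 3 libraries in batch 2 and 3 in batch 1, and 1-2, for example, stands for the library numbered 2 of batch 1. The labels used here do not tie the libraries to different animals, so each p-value measures spread among these libraries, and that spread may be technical.

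Complex I takes electrons from NADH and passes them to ubiquinone, complex III passes them on to cytochrome c, and complex IV uses them to reduce oxygen. These complexes pump protons across the inner mitochondrial membrane, and complex V, the ATP synthase, makes ATP as the protons flow back. The heart depends on this pathway for nearly all its ATP, and several complex IV subunits have isoforms that are largely restricted to heart and skeletal muscle. Of the 43 members, 23 belong to complex I, 7 to complex III, 10 to complex IV and 2 to complex V, and the remaining one, Cycs, encodes cytochrome c itself. Ndufa4 was counted in complex IV, where its product is now placed although it is named for complex I.

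Nuclear genes of this pathway are known targets of the transcription factors NRF1, GABPA (NRF2), YY1 and the estrogen-related receptors (ERR). RefSeq promoter windows on GRCm38.p6, running from 250 bases before to 50 after the start of the gene, were at hand for 32 of the 43 members, in 33 windows because Ndufa5 has 2 starts. The following sequences are shown because Cycs is the classic NRF1 target, Ndufb10 is the member with the smallest p in the test of genotype by batch interaction, and Cox7a1 and Cox7a2 are the muscle isoform and the widely expressed isoform of the same complex IV subunit. Each runs 5′ to 3′ on the strand of its gene, and capitals mark a match to the NRF1 motif. The Cycs window lies at chr6:50566520-50566819 on the minus strand, that of Ndufb10 at chr17:24724374-24724673 on the minus strand, that of Cox7a1 at chr7:30183921-30184220 on the plus strand and that of Cox7a2 at chr9:79759804-79760103 on the minus strand.
Cycs: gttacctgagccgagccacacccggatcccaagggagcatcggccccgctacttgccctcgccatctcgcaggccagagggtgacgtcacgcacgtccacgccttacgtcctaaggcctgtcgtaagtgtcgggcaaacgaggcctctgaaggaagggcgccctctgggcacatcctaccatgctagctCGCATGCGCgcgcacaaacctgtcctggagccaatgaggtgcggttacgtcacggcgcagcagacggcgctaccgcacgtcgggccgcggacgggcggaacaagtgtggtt
Ndufb10: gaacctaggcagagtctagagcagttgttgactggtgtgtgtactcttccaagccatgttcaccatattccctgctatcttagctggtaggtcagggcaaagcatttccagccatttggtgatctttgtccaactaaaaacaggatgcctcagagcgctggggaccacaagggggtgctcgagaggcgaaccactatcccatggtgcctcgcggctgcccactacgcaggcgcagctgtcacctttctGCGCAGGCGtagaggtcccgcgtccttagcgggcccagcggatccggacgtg
Cox7a1: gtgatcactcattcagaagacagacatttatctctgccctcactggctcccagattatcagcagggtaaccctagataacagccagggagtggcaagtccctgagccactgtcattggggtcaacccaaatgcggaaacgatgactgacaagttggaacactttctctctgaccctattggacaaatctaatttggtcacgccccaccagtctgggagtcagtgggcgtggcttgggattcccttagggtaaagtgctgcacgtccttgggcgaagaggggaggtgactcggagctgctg
Cox7a2: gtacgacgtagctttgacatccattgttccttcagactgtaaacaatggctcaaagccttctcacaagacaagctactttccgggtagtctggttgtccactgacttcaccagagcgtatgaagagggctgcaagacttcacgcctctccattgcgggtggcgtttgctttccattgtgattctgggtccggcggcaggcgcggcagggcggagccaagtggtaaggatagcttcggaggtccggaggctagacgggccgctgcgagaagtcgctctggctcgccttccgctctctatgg

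The motif searched for NRF1 was GCGCANGCG on both strands, and 7 of the 33 windows held it (21.2%), against 6.249% of 32851 windows of this length for all genes. The 7 belong to 6 members, Cycs, Ndufa5 with both its windows, Ndufa6, Ndufa8, Ndufb10 and Uqcrc1. Both windows of Ndufa5 overlap and hold the same match, so that site is counted again in the 7. Counted by member it was 6 of 32 (18.8%). The first base of the match lay at position -61 in Cycs and at -2 in Ndufb10, counted from 0 at the RefSeq start, and Uqcrc1 held 3 matches of which a pair overlap. The YY1 motif ATGGCGGC was found in 4 windows (12.1%), those of Ndufa9, Ndufb5, Ndufs4 and Ndufs7, against 2.243% of all windows. The GABPA motif CCGGAAG was found in 4 (12.1%), those of Ndufb7, Ndufs3, Ndufs8 and Uqcrh, against 8.858%. The ERR motif TCAAGGTCA was in none of the 33 and in 0.423% of all windows. The motifs do not contain one another. The windows of Cox7a1 and Cox7a2 held none of the 4. A match describes the letters only, and binding was not measured.

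Library sizes ranged from 27799403 to 40412640 counts in gene rows, and no member had fewer than 2720 counts in any library. Levels are counts scaled to a fixed library total (CPM), computed on library sizes scaled by the trimmed mean of M values (TMM). Fkbp1a was lower in both deletions: it lay between 43.5 and 75.6 CPM in FKl/l MHC+ and between 51.1 and 81.1 CPM in FKl/l MCK+, against 121 to 147 CPM in FKl/l. Of the MHC CRE Only libraries 5 lay between 122 and 138 CPM, while the level was 81.7 CPM in the library labelled MHC CRE Only 1-3, which goes against its label. Markers of airway cells, taken over 10 genes, summed to 913 CPM for MHC CRE Only 2-3 and to 331 CPM for FKl/l 1-1, where the median was 3.41 CPM over all 24 libraries. These are called the 3 doubted libraries. Cardiomyocyte markers were abundant in all 24 libraries, with a sum over 15 genes of 63213 to 81764 CPM, and a whole-heart level is that of a mixture of cells, in which fewer cells of a type and less RNA per cell cannot be told apart.

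Per length of exon, the most abundant members were Cox4i1 (1732 CPM per kb) and Cox6a2 (1683 CPM per kb), both of complex IV. Cox4i1 encodes the subunit to which ATP binds as a regulator, and Cox6a2 encodes the muscle isoform of subunit 6a. Atp5b and Atp5a1, the β and α subunits of the catalytic head of ATP synthase, followed with 1001 and 898 CPM per kb. Ndufb10 of the membrane arm was the highest member of complex I (644 CPM per kb) and Uqcrc1, a core protein, the highest of complex III (454 CPM per kb). Cycs had 154 CPM per kb. At the low end stood the complex I genes Ndufab1 (40.3 CPM per kb), which encodes the mitochondrial acyl carrier protein, Ndufs4 (42.0) and Ndufs1 (46.0). The exon length used here merges all annotated transcripts of a gene, which lowers the level of genes with long annotated variants. Some of these genes, Cycs among them, have processed pseudogenes in the mouse, and how reads shared with such copies were counted is not given in the sources used here.

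Summed over the 43 members, the level was 26948 ± 2458 CPM in FKl/l MHC+, 26680 ± 998 CPM in FKl/l MCK+, 27052 ± 2859 CPM in MHC CRE Only and, for FKl/l, 27333 ± 1441 CPM (SD, n = 6 each). The genotype means differed by less than the spread within a genotype. Within a genotype the spread followed the batches: FKl/l MHC+ had 24745 ± 713 CPM in batch 2 and 29150 ± 220 CPM in batch 1, and FKl/l had 26290 ± 332 CPM in batch 2 and 28376 ± 1348 CPM in batch 1 (SD, n = 3 each). FKl/l MCK+ had 26072 ± 655 CPM in batch 2 and 27287 ± 978 CPM in batch 1 (SD, n = 3 each). MHC CRE Only had 25471 ± 638 CPM in batch 2 and 28633 ± 3539 CPM in batch 1 (SD, n = 3 each). The wide spread in that last set came from 1-3, at 25010 CPM, while its batch-mates had 32082 and 28809 CPM.

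**Figure D1:**
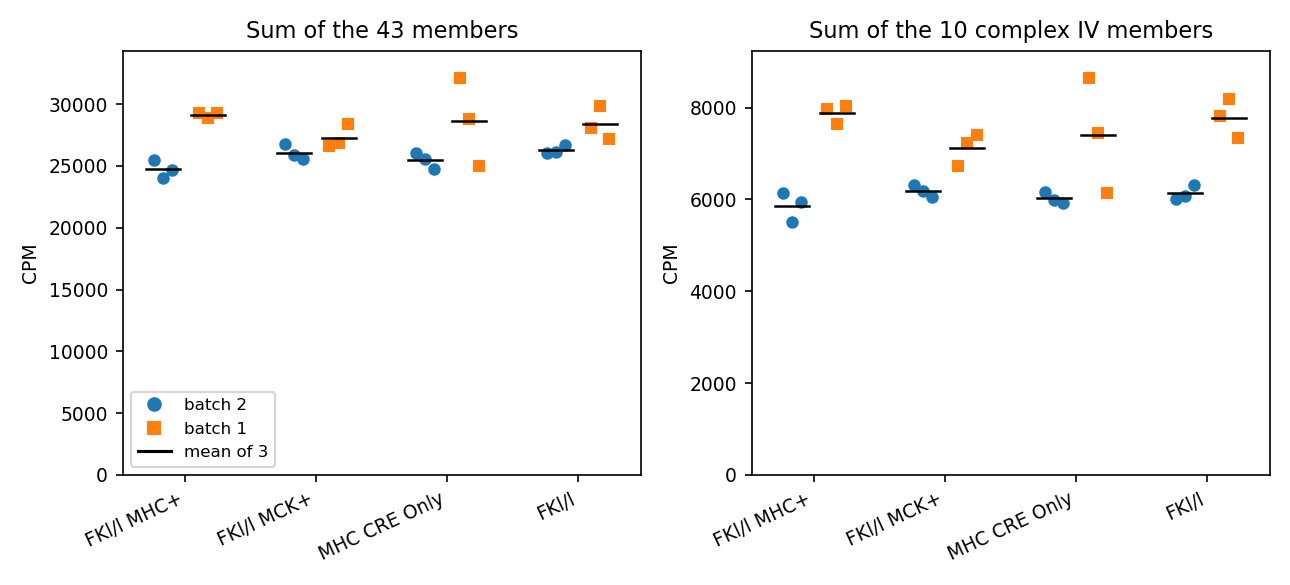
Summed level (CPM) of the 43 members and of the 10 complex IV members in each library, by genotype, with blue circles for batch 2, orange squares for batch 1 and a black line at the mean of 3 libraries. In all 4 genotypes the mean of batch 2 lies below that of batch 1, from 24745 against 29150 CPM in FKl/l MHC+ to 26072 against 27287 CPM in FKl/l MCK+, while the genotypes overlap.

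The study's design asks what loss of FKBP12 from cardiac muscle does to the heart, and for these genes none of the 43 passed the test in any of the 5 genotype comparisons. A gene was called where its p from edgeR's quasi-likelihood test, adjusted by Benjamini-Hochberg over the 16018 genes tested, was under 0.05. In FKl/l MHC+ over FKl/l 0 of 43 members were called, where 1.71% of all genes were. FKl/l MHC+ over MHC CRE Only also gave 0 of 43, against 1.87% of all genes. In FKl/l MHC+ over FKl/l MCK+ it was 0 of 43, against 2.15%. FKl/l MCK+ over FKl/l gave 0 of 43 against 0.0499%, and MHC CRE Only over FKl/l gave 0 of 43 against 0.0437%. At these rates fewer than 1 call would be found among 43 genes, so a count of 0 does not set the members apart from other genes.

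Without adjustment, 4 members had a p under 0.05 in FKl/l MHC+ over FKl/l (14.7% of all genes), 4 in FKl/l MHC+ over MHC CRE Only (15.8%), 1 in FKl/l MHC+ over FKl/l MCK+ (15.4%), 0 in FKl/l MCK+ over FKl/l (5.24%) and 2 in MHC CRE Only over FKl/l (12.9%). DESeq2 called 0 members in FKl/l MHC+ over FKl/l and 0 in FKl/l MCK+ over FKl/l, and 1 in each of the other 3 comparisons. These were Ndufb3 in FKl/l MHC+ over MHC CRE Only (DESeq2 adjusted p = 0.0334) and in MHC CRE Only over FKl/l (DESeq2 adjusted p = 0.0269), and Uqcrh in FKl/l MHC+ over FKl/l MCK+ (DESeq2 adjusted p = 0.0449).

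Each member has its own 95% interval from the fit of both batches together. Over the 43 members, these intervals of the log2 fold change reached from -0.41 (Cox7a1) to 0.32 (Uqcrb) in FKl/l MHC+ over FKl/l. They reached from -0.32 (Cox7a1) to 0.34 (Ndufb3) in FKl/l MHC+ over MHC CRE Only, and from -0.34 (Cox6c) to 0.34 (Ndufb10) in FKl/l MHC+ over FKl/l MCK+. For FKl/l MCK+ over FKl/l they ran from -0.35 (Cox8b) to 0.19 (Uqcrb), and for MHC CRE Only over FKl/l from -0.42 (Cox6c) to 0.23 (Ndufs1). The members' median log2 fold change was -0.018, 0.040, 0.023, -0.029 and -0.035 in these 5 comparisons in the order given, where the median over all genes tested was -0.0035, -0.016, -0.0071, 0.0043 and 0.0038. Of the 43 log2 fold changes 25, 13, 19, 32 and 32 were negative. Single values within a batch went further, to -0.45 for Cox6c in batch 1 of FKl/l MHC+ over FKl/l. The comparisons share libraries, so these counts are not independent of each other. Without the 3 doubted libraries 0 members were called in each of the 5, and the medians for FKl/l MHC+ over MHC CRE Only and MHC CRE Only over FKl/l took the other sign, at -0.0072 and 0.017.

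**Figure D2:**
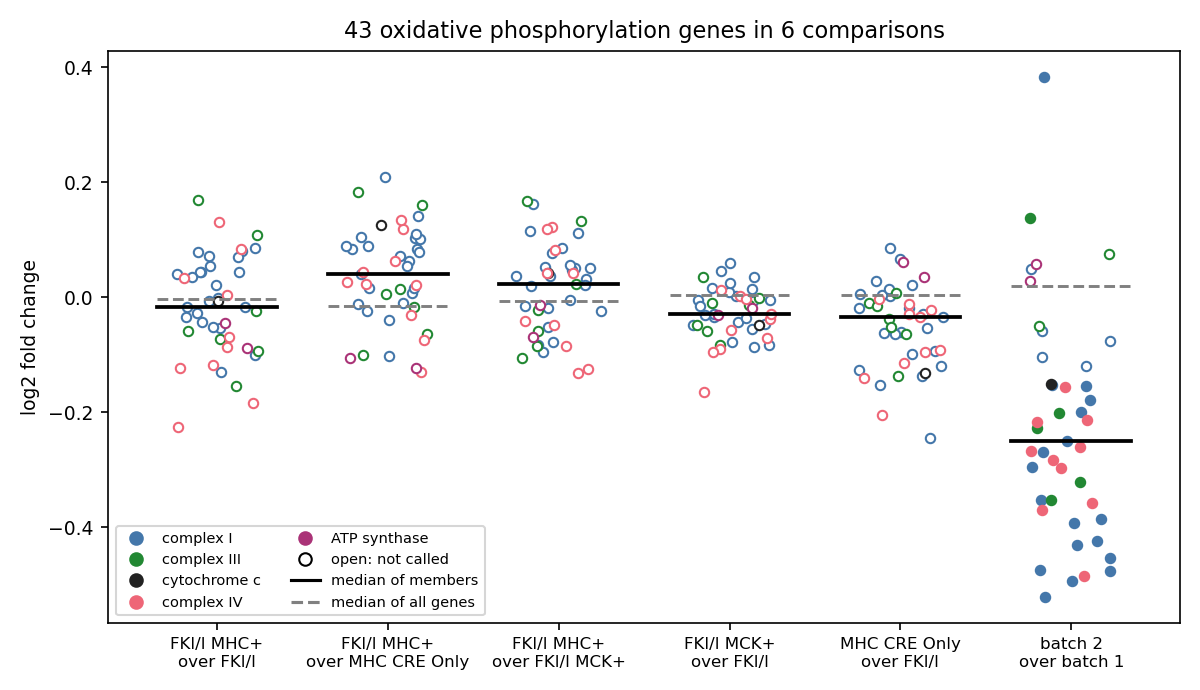
Log2 fold change of each of the 43 members in the 5 genotype comparisons and between batches, with filled points for members called and open points for the rest, a black bar at the members' median and a gray dashed line at the median of all genes tested. All points of the genotype comparisons are open and lie between -0.24 and 0.21, whereas 34 of 43 are filled in batch 2 over batch 1, with a median of -0.25.

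In complex I, the 23 members had a median log2 fold change of 0.022 in FKl/l MHC+ over FKl/l, with single genes between -0.13 and 0.086. Ndufv2, an iron-sulfur subunit of the arm that oxidizes NADH, was the highest of them. It ranged from 490 to 594 CPM around a median of 556 in FKl/l MHC+, and from 435 to 572 CPM around 527 in FKl/l, and the groups overlapped (log2 fold change 0.086 with an SE of 0.075, adjusted p = 0.629). Ndufa5, a subunit of the arm that binds ubiquinone, was the lowest. Its level ranged from 95.8 to 143 CPM around a median of 120 in FKl/l MHC+ and from 101 to 164 CPM around 131 in FKl/l (log2 fold change -0.13 with an SE of 0.078, adjusted p = 0.450). The groups overlapped, and almost all of the difference lay in batch 1, at -0.24, against -0.014 in batch 2.

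Ndufb3, an accessory subunit of the membrane arm that is named after its values were seen, had the highest log2 fold change of complex I in FKl/l MHC+ over MHC CRE Only. Ndufb3 had 94.4, 108 and 113 CPM in batch 2 and 133, 131 and 145 CPM in batch 1 of FKl/l MHC+. In MHC CRE Only it had 92.3, 99.1 and 90.7 CPM in batch 2 and 121, 118 and 102 CPM in batch 1. Its log2 fold change was 0.21 (SE 0.064, adjusted p = 0.0845), and that of MHC CRE Only over FKl/l was -0.24 (SE 0.064, adjusted p = 0.104). FKl/l MHC+ stood close to FKl/l, with a log2 fold change of -0.035 (adjusted p = 0.839), and MHC CRE Only was the group with the lowest mean. Without the 3 doubted libraries the values were 0.16 over MHC CRE Only (adjusted p = 0.229) and -0.16 in MHC CRE Only over FKl/l (adjusted p = 0.496). FKl/l had 100.2, 108 and 104 CPM in batch 2 and 158, 147 and 128 CPM in batch 1.

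Complex III held the member with the highest log2 fold change in FKl/l MHC+ over FKl/l, Uqcrb, an accessory subunit that binds near the ubiquinone site. Uqcrb ranged from 199 to 279 CPM around a median of 242 in FKl/l MHC+ and from 181 to 265 CPM around 204 in FKl/l (log2 fold change 0.17 with an SE of 0.075, adjusted p = 0.284). Uqcrfs1, at chr13:30540308-30545362 on the minus strand of GRCm38, which encodes the Rieske iron-sulfur protein that hands electrons to cytochrome c1, was the lowest of complex III. It had 342, 396 and 348 CPM in batch 2 and 332, 307 and 315 CPM in batch 1 of FKl/l MHC+. FKl/l had 368, 361 and 369 CPM in batch 2 and 371, 428 and 376 CPM in batch 1. In batch 1 the groups did not overlap, and in batch 2 they did (log2 fold change -0.15 with an SE of 0.068, adjusted p = 0.270, with -0.30 in batch 1 and -0.017 in batch 2). Neither gene was called. They were picked as the highest and the lowest of complex III, so their unlike signs do not set catalytic against accessory subunits. The accessory subunits alone ran from -0.059 to 0.17.

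Uqcrc1, the most abundant complex III member per length, ranged from 1578 to 1913 CPM around a median of 1825 in FKl/l MHC+ and from 1704 to 2023 CPM around 1935 in FKl/l (log2 fold change -0.094 with an SE of 0.074, adjusted p = 0.580). Its groups overlapped over both batches, but in batch 2 each FKl/l MHC+ library, at 1822, 1578 and 1685 CPM, lay below each FKl/l library, at 1993, 1982 and 2023 CPM. Cycs ranged from 494 to 585 CPM around a median of 535 in FKl/l MHC+ and from 460 to 615 CPM around 535 in FKl/l (log2 fold change -0.0060 with an SE of 0.073, adjusted p = 0.982). Cytochrome c, which also triggers apoptosis once released from mitochondria, therefore had the smallest difference among the genes named here for this comparison, with a 95% interval from -0.15 to 0.14.

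Among the 10 complex IV members, Cox7a1 had the lowest log2 fold change in FKl/l MHC+ over FKl/l. Cox7a1 (ENSMUSG00000074218), at chr7:30184144-30186078 on the plus strand of GRCm38, encodes the heart and muscle isoform of subunit 7a. It had 376, 299.8 and 352 CPM in batch 2 and 474, 410 and 411 CPM in batch 1 of FKl/l MHC+. FKl/l had 382, 394 and 413 CPM in batch 2 and 459, 552 and 520 CPM in batch 1. In batch 2 each FKl/l MHC+ library lay below each FKl/l library, and in batch 1 the highest FKl/l MHC+ library lay above the lowest FKl/l library. The log2 fold change was -0.23 (SE 0.092, unadjusted p = 0.0201, adjusted p = 0.228 in edgeR), with -0.24 in batch 1 and -0.21 in batch 2, and this was the smallest adjusted p of any member in the comparison.

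Cox7a2 encodes the isoform of subunit 7a found in most tissues, and it had the highest log2 fold change of complex IV. It had 237, 248 and 251 CPM in batch 2 and 286, 263 and 306 CPM in batch 1 of FKl/l MHC+, against 221, 235 and 233 CPM in batch 2 and 270, 254 and 238 CPM in batch 1 of FKl/l. In batch 2 the groups did not overlap and in batch 1 they did (log2 fold change 0.13 with an SE of 0.059, adjusted p = 0.295). Cox4i1 ranged from 2006 to 3353 CPM around a median of 2890 in FKl/l MHC+ and from 2397 to 3158 CPM around 2661 in FKl/l, a difference well within its spread (log2 fold change 0.033 with an SE of 0.090, adjusted p = 0.895). The muscle isoforms Cox6a2 and Cox8b had log2 fold changes of -0.087 (adjusted p = 0.580) and -0.12 (adjusted p = 0.560).

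In complex V, Atp5a1 ranged from 2597 to 2802 CPM around a median of 2659 in FKl/l MHC+ and from 2552 to 3006 CPM around 2900 in FKl/l (log2 fold change -0.088 with an SE of 0.062, adjusted p = 0.531). Atp5b ranged from 3996 to 4348 CPM around 4041 in FKl/l MHC+ and from 3593 to 4530 CPM around 4325 in FKl/l (log2 fold change -0.045 with an SE of 0.068, adjusted p = 0.801). For both genes the lowest FKl/l library was 1-1, one of the 2 libraries with airway markers, and the groups overlapped.

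**Figure D3:**
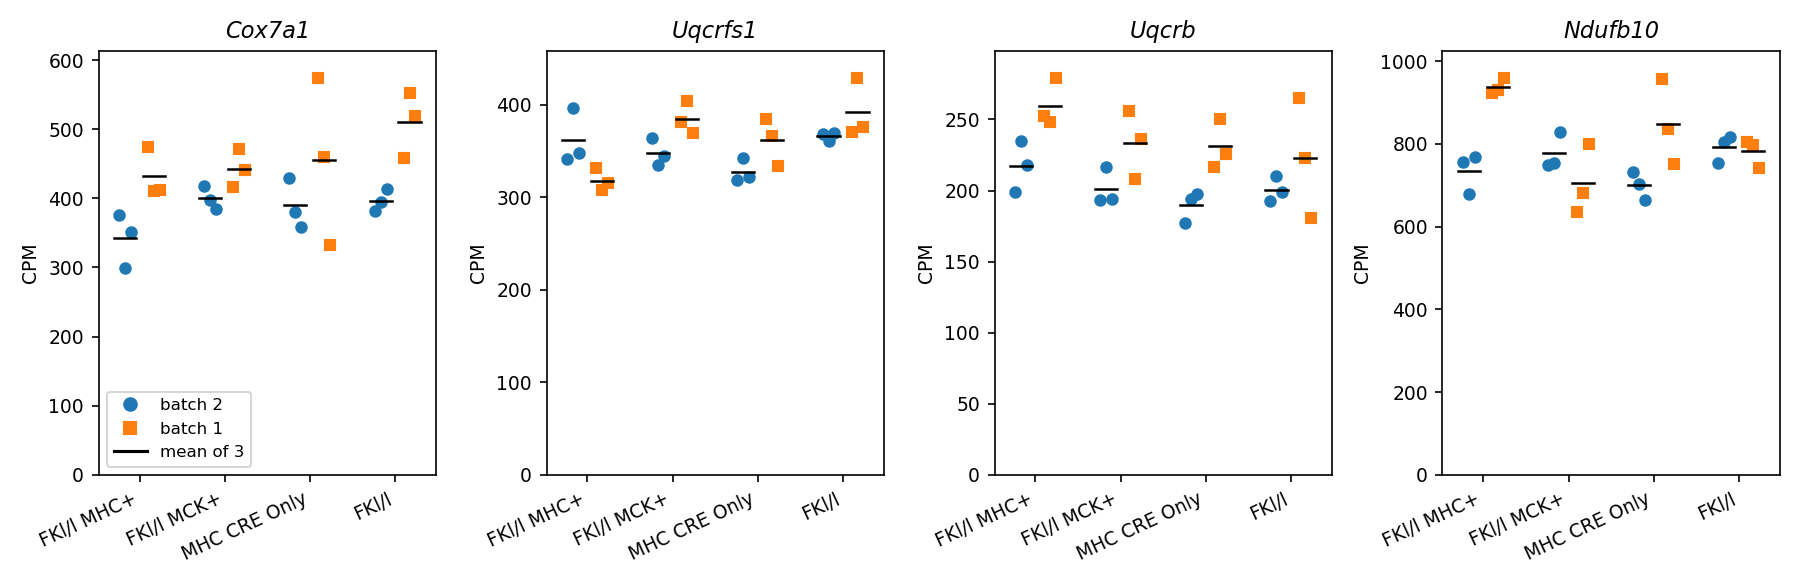
Level (CPM) of Cox7a1, Uqcrfs1, Uqcrb and Ndufb10 in each library by genotype, with blue circles for batch 2, orange squares for batch 1 and a black line at the mean of 3 libraries. Cox7a1 is lower in FKl/l MHC+ than in FKl/l in both batches (log2 fold change -0.21 and -0.24), whereas the difference of Uqcrfs1 lies in batch 1 (-0.30 against -0.017 in batch 2).

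In FKl/l MCK+ over FKl/l the differences were smaller. The gene with the smallest adjusted p was Cox8b, which encodes the muscle isoform of subunit 8, at a log2 fold change of -0.16 and an adjusted p of 0.971. It ranged from 244 to 316 CPM around a median of 255 in FKl/l MCK+ and from 233 to 397 CPM around 295 in FKl/l, so that the groups overlapped. In FKl/l MHC+ over FKl/l MCK+ the smallest adjusted p was that of Uqcrh, the hinge subunit of complex III that helps cytochrome c bind. Uqcrh had 377, 369 and 392 CPM in batch 2 and 526, 521 and 524 CPM in batch 1 of FKl/l MHC+. FKl/l MCK+ had 358, 367 and 367 CPM in batch 2 and 418, 439.6 and 439.6 CPM in batch 1. The groups did not overlap in either batch (log2 fold change 0.17 with an SE of 0.060, adjusted p = 0.159). Cox8b and Uqcrh were named after their values were seen.

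A set of 3 subunits of complex IV exist as a muscle isoform and a widely expressed isoform, and the ratio of the isoforms within a library does not depend on how libraries are scaled. Cox6a1 and Cox8a, the widely expressed isoforms of subunits 6a and 8, are not among the 43 members. The ratio of Cox7a1 to Cox7a2 was lower in FKl/l MHC+ than in FKl/l in every library. Its log2 ranged from 0.28 to 0.73 around a median of 0.56 in FKl/l MHC+, from 0.64 to 0.92 around 0.80 in FKl/l MCK+, from 0.57 to 1.06 around 0.77 in MHC CRE Only and from 0.75 to 1.12 around 0.81 in FKl/l. Thus the lowest FKl/l library stood just above the highest FKl/l MHC+ library, and the other genotypes overlapped with both.

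The mean log2 ratio was 0.54 ± 0.17 in FKl/l MHC+ and 0.89 ± 0.18 in FKl/l (SD, n = 6 each), a difference of -0.36, with -0.40 in batch 1 and -0.31 in batch 2. An exact 2-sided permutation test that moved genotype labels within batches gave p = 0.005, the smallest its 400 arrangements can give. Adjusted over the 15 tests of 3 ratios in 5 comparisons this was 0.075, so it did not pass 0.05. A single ratio at p = 0.005 in this permutation test cannot get below 0.075 over 15 tests. It could therefore not pass alone, however clean the separation. Against MHC CRE Only the difference was -0.25 (exact permutation p = 0.04, adjusted p = 0.12), and against FKl/l MCK+ it was also -0.25 (exact permutation p = 0.02, adjusted p = 0.10). FKl/l MCK+ over FKl/l and MHC CRE Only over FKl/l both gave -0.11 (exact permutation p = 0.215 and 0.29). The ratio of Cox8b to Cox8a differed by -0.27 in FKl/l MHC+ over FKl/l (exact permutation p = 0.01, adjusted p = 0.075), with -0.42 in batch 1 and -0.11 in batch 2. The ratio of Cox6a2 to Cox6a1 differed by -0.29 in FKl/l MHC+ over FKl/l MCK+ (exact permutation p = 0.03, adjusted p = 0.1125). None of the 15 passed after adjustment. Without the 3 doubted libraries the Cox7a1 to Cox7a2 difference was -0.42 over FKl/l and -0.34 over MHC CRE Only, that of Cox8b to Cox8a was -0.33 over FKl/l, each with an exact permutation adjusted p of 0.075. When labels moved over both batches together, the Cox7a1 to Cox7a2 ratio in FKl/l MHC+ over FKl/l passed (exact permutation, adjusted p = 0.0325).

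**Figure D4:**
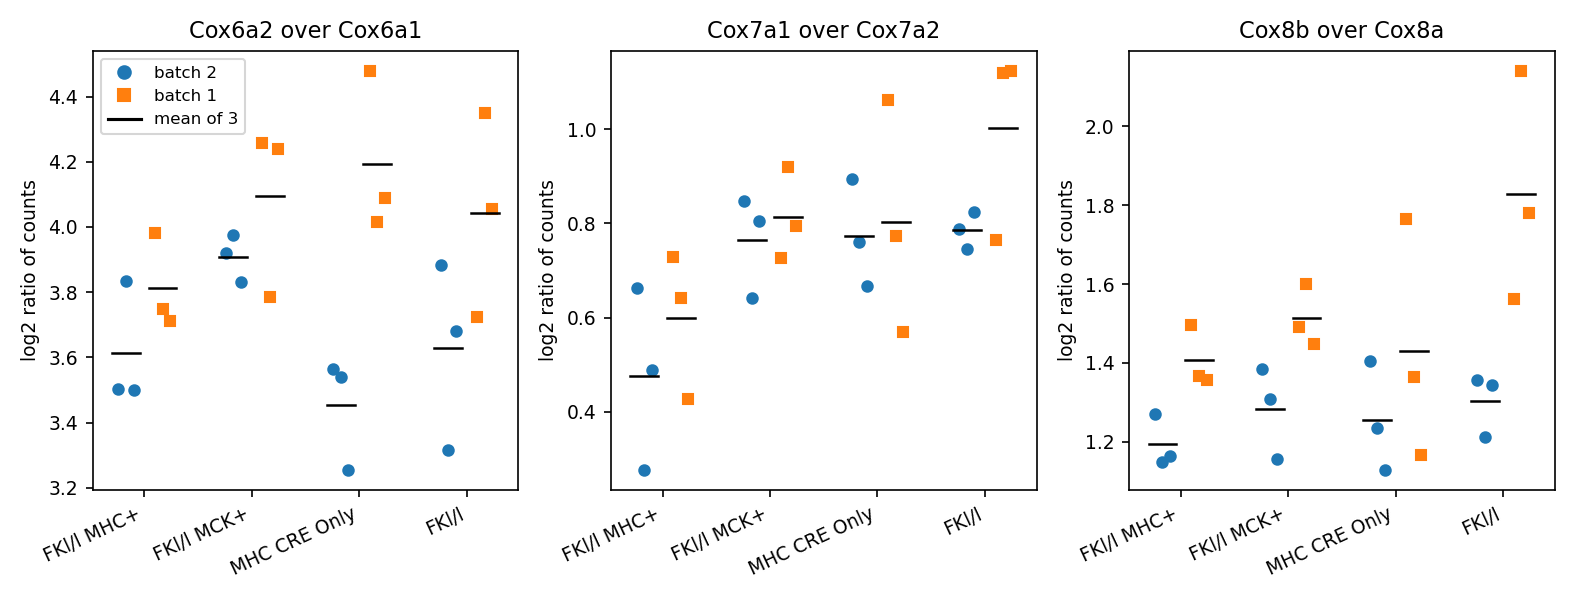
Log2 ratio of the muscle isoform to the widely expressed isoform of complex IV subunits 6a, 7a and 8 in each library by genotype, with blue circles for batch 2, orange squares for batch 1 and a black line at the mean of 3 libraries. For subunit 7a the FKl/l MHC+ libraries lie between 0.28 and 0.73 and the FKl/l libraries between 0.75 and 1.12. No difference passed after adjustment over 15 tests, where a single ratio at the smallest p the test can give could not pass alone.

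The pathway has other nuclear subunits that are not members, and they were described in the same way. Of 43 such genes, 1 rose in FKl/l MHC+ over FKl/l, 1 in FKl/l MHC+ over MHC CRE Only and 1 in FKl/l MHC+ over FKl/l MCK+, and in each case it was Atpif1. This is 1 gene of 43, where 1.71, 1.87 and 2.15% of all genes were called in either direction. Their median log2 fold changes were -0.023, 0.040 and 0.038. Atpif1 encodes the inhibitory factor that binds the ATP synthase and keeps it from running backwards and using up ATP. It had 75.9, 73.6 and 83.7 CPM in batch 2 and 100.2, 98.6 and 107 CPM in batch 1 of FKl/l MHC+. FKl/l had 67.5, 70.6 and 73.0 CPM in batch 2 and 88.0, 81.8 and 72.5 CPM in batch 1. Within each batch every FKl/l MHC+ library lay above every FKl/l library. The log2 fold change was 0.24 over FKl/l (SE 0.060, adjusted p = 0.0302), 0.24 over MHC CRE Only (SE 0.060, adjusted p = 0.0293) and 0.28 over FKl/l MCK+ (SE 0.060, adjusted p = 0.0103). The calls over FKl/l and over MHC CRE Only ended with a replicate block (adjusted p = 0.0537 and 0.0521), without TMM (0.0872 and 0.0674), without the filter on low counts (0.0597 and 0.0533), and each in 8 of 24 fits that left out 1 library (up to 0.109 and 0.0956). Both ended without FKl/l MHC+ 1-1, 1-2, 1-3 or 2-3, the call over FKl/l also without FKl/l 1-2, 1-3, 2-1 or 2-2, and the call over MHC CRE Only also without MHC CRE Only 1-2, 2-1, 2-2 or 2-3. With the libraries of FKl/l MHC+ and FKl/l alone the first was also lost (0.0607). Without a batch term all 3 calls were lost (0.279, 0.354 and 0.168), and in batch 2 alone they were too (0.419, 0.114 and 0.291). In batch 1 alone the call over FKl/l MCK+ was made (0.0329), and those over FKl/l and MHC CRE Only were not (0.0601 and 0.118).

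Of 41 assembly factors of the complexes, 40 were tested. In FKl/l MHC+, 1 rose over FKl/l, 2 rose over MHC CRE Only and 2 rose over FKl/l MCK+, while none fell. Counts this small do not set the assembly factors apart. Of all genes, 1.71, 1.87 and 2.15% were called in either direction in these comparisons. Cox19, a copper-handling factor needed to assemble complex IV, rose in all of these, by a log2 fold change of 0.36 over FKl/l (adjusted p = 0.00983), 0.29 over MHC CRE Only (adjusted p = 0.0437) and 0.49 over FKl/l MCK+ (adjusted p = 0.00079). It ranged from 40.9 to 55.7 CPM around a median of 50.2 in FKl/l MHC+, from 31.7 to 37.1 CPM around 35.3 in FKl/l MCK+, from 33.6 to 48.3 CPM around 39.3 in MHC CRE Only and from 34.9 to 42.7 CPM around 36.6 in FKl/l. Cox17, the copper chaperone of complex IV, was higher over MHC CRE Only (0.25, adjusted p = 0.0199) and over FKl/l MCK+ (0.24, adjusted p = 0.0232), and had a log2 fold change of 0.068 over FKl/l (adjusted p = 0.609). For Cox17 those 2 groups stood below FKl/l, at -0.18 for MHC CRE Only (edgeR adjusted p = 0.164) and -0.17 for FKl/l MCK+ (edgeR adjusted p = 0.733), and neither difference was called. Cox19 over MHC CRE Only was lost with a replicate block (adjusted p = 0.0795) and in 15 of 24 fits that left out 1 library (up to 0.145). Of these fits it passed only in those without FKl/l MHC+ 2-1, MHC CRE Only 1-3, FKl/l 1-1 or 1-3, or an FKl/l MCK+ library other than 2-2. Cox17 over MHC CRE Only was lost without the 3 doubted libraries (adjusted p = 0.0658) and without FKl/l MHC+ 1-3 or MHC CRE Only 2-1, and Cox17 over FKl/l MCK+ without FKl/l MHC+ 1-3 or 2-3 or FKl/l MCK+ 1-1, 1-3 or 2-3 (up to 0.0701). On total counts without TMM both Cox17 calls (adjusted p = 0.115 and 0.114) and that of Cox19 over MHC CRE Only (0.102) were lost, and without a batch term they were too (0.591, 0.558 and 0.166). With 1 batch alone, Cox17 over FKl/l MCK+ was called in neither, Cox17 and Cox19 over MHC CRE Only and Cox19 over FKl/l were called in batch 2 only, and Cox19 over FKl/l MCK+ in batch 1 only. Against a fold of 1.2, Atpif1, Cox19 and Cox17 lost every call.

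None of 4 complex II subunits, 13 mitochondrially encoded subunits and 20 regulators of mitochondrial biogenesis was called in any genotype comparison. Markers of other cells moved with some of them. Of 10 skeletal muscle markers, 6 were tested and 3 rose in FKl/l MHC+ over FKl/l (Mylpf, by a log2 fold change of 2.31, Atp2a1 by 1.52 and Tnni2 by 1.05). Mylpf also rose over MHC CRE Only (1.13), and Mylpf and Atp2a1 over FKl/l MCK+ (1.97 and 1.00). The summed level of the 10 ranged from 3608 to 4993 CPM in FKl/l MHC+ and from 2411 to 4263 CPM in FKl/l, and none of the 10 was at 0 in all libraries. This sum takes in Ckm, which is also counted among the cardiomyocyte markers, so it is not a level of skeletal muscle alone. In FKl/l MHC+ over FKl/l MCK+, 6 of 10 endothelial markers were lower, with sums of 701 to 863 CPM in FKl/l MHC+ and 832 to 1095 CPM in FKl/l MCK+. None of these 10 was called in FKl/l MHC+ over FKl/l or over MHC CRE Only (median log2 fold changes -0.18 and -0.15). The same held in FKl/l MCK+ over FKl/l (0.13). Of all genes, 1.71% were called in FKl/l MHC+ over FKl/l, 1.87% over MHC CRE Only and 2.15% over FKl/l MCK+. Of 8 smooth muscle and pericyte markers Pdgfrb was lower in FKl/l MHC+ over MHC CRE Only (-0.33) and over FKl/l MCK+ (-0.36). Of 10 fibroblast markers Fbln1 (-0.41) and Dpt (-0.36) were lower in FKl/l MHC+ over FKl/l MCK+. Fbln1 was also called higher in FKl/l MCK+ over FKl/l (0.55, edgeR adjusted p = 0.00859), where 0.0499% of all genes were called. The cardiomyocyte marker Tnnc1 was higher in FKl/l MHC+ over MHC CRE Only (0.35). The part of these cells in the levels of Atpif1, Cox19 and Cox17 was not tested.

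The larger differences in these genes lay between the batches. In batch 2 over batch 1, 34 of the 43 members were called, with 32 lower and 2 higher, where 38.4% of all genes were called, with 16.2% lower and 22.2% higher. The members' median log2 fold change was -0.25, and that of all genes was 0.020. All 10 complex IV members were lower, as were 17 of 23 in complex I, 4 of 7 in complex III and Cycs, whereas Atp5a1 and Atp5b were not called. The labels name the batches and do not say what differed between them.

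**Figure D5:**
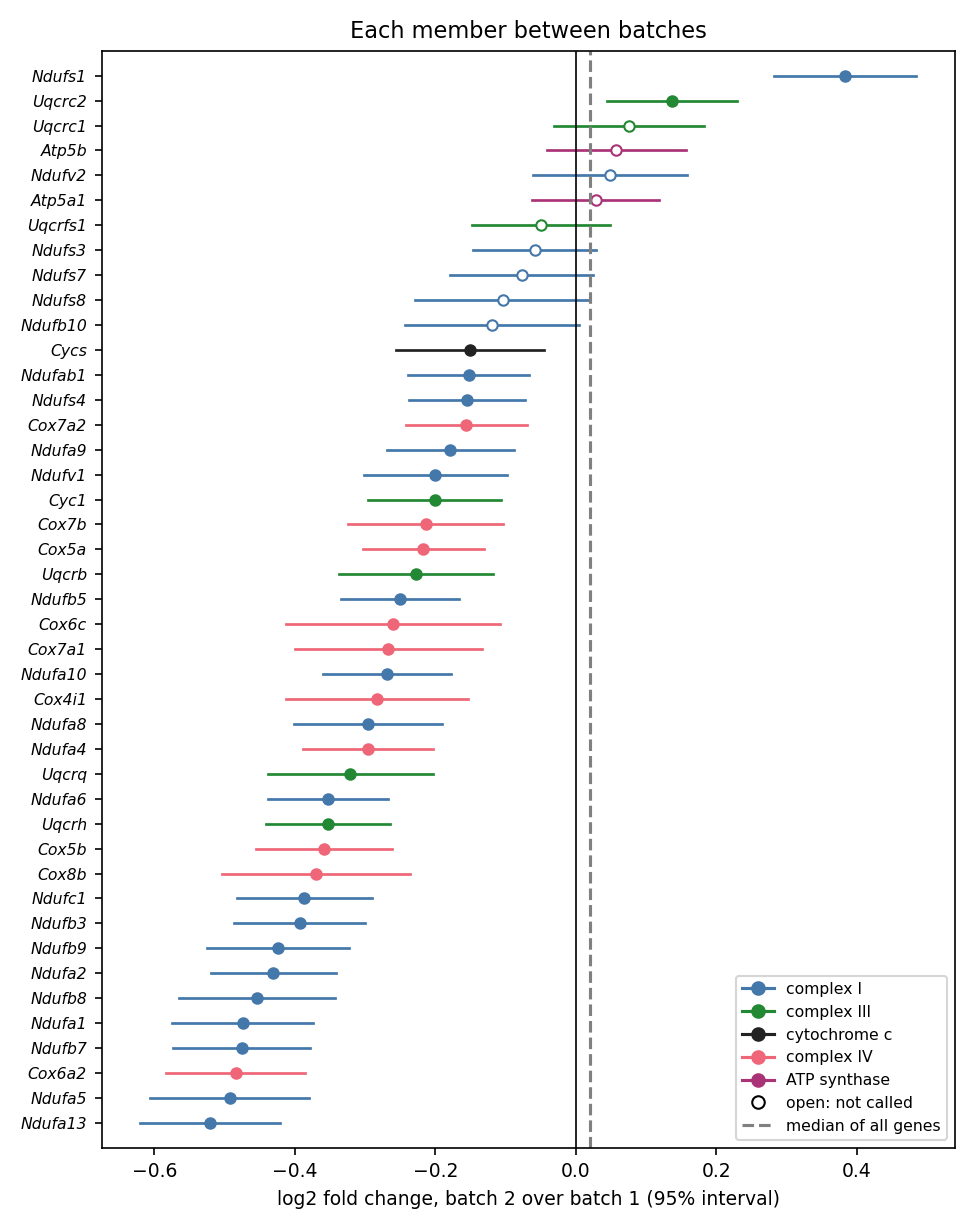
Log2 fold change of batch 2 over batch 1 for each of the 43 members, with 95% intervals, ordered by log2 fold change and coloured by complex. Of the members 32 are lower in batch 2, reaching -0.52 for Ndufa13, and 2 are higher, Ndufs1 at 0.38 and Uqcrc2 at 0.14.

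Within complex I the arms differed in their counts. Exon length, which went along with the batch difference (Spearman's correlation 0.49 over the members), was not separated from the arm. In the membrane arm 10 of 11 members were lower in batch 2, with a median of -0.39, where 16.2% of all genes were lower. The lowest of all was Ndufa13, also known as GRIM-19, which ranged from 166 to 202 CPM around a median of 179 in batch 2 and from 198 to 297 CPM around 262 in batch 1. Only the library labelled MHC CRE Only 1-3, at 198 CPM, brought batch 1 down to the range of batch 2 (log2 fold change -0.52 with an SE of 0.048, adjusted p = 3.04e-09). Of the 6 members of the ubiquinone-binding arm 3 were lower, with Ndufa5 at -0.49 (SE 0.055, adjusted p = 7.45e-08). Of the 5 in the arm that oxidizes NADH 3 were lower and 1 was higher. That one, Ndufs1, encodes the largest subunit of the complex, which carries several iron-sulfur clusters. It ranged from 387 to 473 CPM around a median of 416 in batch 2 and from 273 to 378 CPM around 326 in batch 1, so that the batches did not overlap (log2 fold change 0.38 with an SE of 0.049, adjusted p = 6.78e-07). Genes in this paragraph other than Ndufa5 were named after their values were seen.

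In complex III the accessory subunits Uqcrh, Uqcrq and Uqcrb were lower in batch 2, at log2 fold changes of -0.35, -0.32 and -0.23, while Uqcrc2, a core protein, was higher (0.14, adjusted p = 0.0165). In complex IV the 3 muscle isoforms were lower, Cox6a2 by a log2 fold change of -0.48, Cox8b of -0.37 and Cox7a1 of -0.27. Cox6a2 ranged from 855 to 1046 CPM around a median of 962 in batch 2 and from 1176 to 1552 CPM around 1332 in batch 1, and the batches did not overlap. The widely expressed Cox7a2 was lower by less, at -0.16. As a description, the mean log2 ratio of muscle to widely expressed isoform was lower in batch 2 in 4 of 4 genotypes for each pair, with 3.65 in batch 2 and 4.04 in batch 1 for subunit 6a, 0.70 and 0.80 for subunit 7a, and 1.26 and 1.55 for subunit 8.

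The batch difference was present within each genotype. The members' median was -0.33 in FKl/l MHC+ with 25 members lower, -0.21 in FKl/l MCK+ with 16 lower, -0.26 in MHC CRE Only with 15 lower and -0.24 in FKl/l with 21 lower. Of all genes tested 9.64, 8.06, 3.93 and 9.26% were lower in these genotypes in the same order. The scaling of libraries moved the level of all genes: on total gene counts without TMM the median of all genes was 0.20, and 14 members were lower and 7 higher, with a members' median of -0.066. Over all genes that scaling gave 1024 lower and 6950 higher, against 2598 lower and 3560 higher with TMM. Relative to the median of all genes the members stood at -0.26 without TMM and -0.27 with it. As a share of raw counts the members were not lower in batch 2, at 2.73 ± 0.108% in batch 2 and 2.66 ± 0.220% in batch 1 (SD, n = 12 each). The 32 members called lower were shared with every other setting tried except a test against a fold of 1.2, under which 10 were lower and 1 higher (4.70% and 2.96% of all genes), and the scaling without TMM.

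Other measures moved with the batch, and their part in the result was not tested. The summed level of the 15 cardiomyocyte markers ranged from 63213 to 72070 CPM in batch 2 and from 72215 to 81764 CPM in batch 1, without overlap, and 6 of the 15 were lower and 2 higher. The ratio of the members' sum to the marker sum was 0.371 ± 0.0160 in batch 2 and 0.371 ± 0.0183 in batch 1 (SD, n = 12 each). That ratio is one of sums, in which the most abundant genes weigh most, and gene by gene the markers' median log2 fold change was -0.022, where that of the members was -0.25. Of 5 atrial markers 4 were lower and of 10 endothelial markers 6 were lower. Of all genes 16.2% were lower and 22.2% higher. The atrial sum was 2280 to 3804 CPM in batch 2 and 3076 to 8783 CPM in batch 1. Its highest value was that of FKl/l 1-3, and the next was 4683 CPM in FKl/l 1-1. The endothelial sum was 701 to 862 CPM in batch 2 and 768 to 1095 CPM in batch 1. Mitochondrially encoded genes took 25.7 to 29.9% of counts in batch 2 and 27.6 to 36.5% in batch 1, and 9 of the 13 encoded subunits were lower in batch 2, by up to 1.31 on the log2 scale for mt-Co3.

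The members are short genes, and length went along with the batch difference, which was looked at after the values were seen. The members' median merged exon length was 1718 bases, and that of all genes with a length 4111 bases. Over those 15967 genes, Spearman's correlation of the batch log2 fold change with exon length was 0.23, and over the 43 members it was 0.49. These are correlations across genes, which are not replicates, and all points share the same libraries. Among genes of up to 1000 bases, 9 of 9 members and 32.3% of all genes were lower in batch 2. Between 1001 and 2000 bases it was 11 of 15 members and 25.4% of all genes, between 2001 and 4000 bases 9 of 13 and 15.7%, and over 4000 bases 3 of 6 and 12.8%. Among other genes at least as abundant as the least abundant member, 35 of 48, 69 of 119, 95 of 286 and 91 of 414 were lower in the same length classes, and 0, 5, 74 and 171 were higher. Other abundant genes of up to 2000 bases were thus also often lower in batch 2, and those over 4000 bases were more often higher than lower. Only the 43 members were taken out of these other genes, so other subunits of the pathway are still among them. Most of those subunits were lower in batch 2 as well, as given below, and their part in each length class was not counted. With GC content the correlation was -0.11 over the members and 0.017 over all genes.

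The other genes of the pathway varied by group. Of the 43 other nuclear subunits 33 were lower in batch 2 and 1 was higher, with a median of -0.25. The higher one was Sdha, the flavoprotein of complex II (log2 fold change 0.33 with an SE of 0.051, adjusted p = 8.91e-06), and the lower ones took in 13 of 14 further complex I subunits, 2 of 2 of complex III, 4 of 8 of complex IV and 14 of 15 of complex V. Of all genes 16.2% were lower and 22.2% higher. The assembly factors were mixed, with 12 higher and 10 lower of 40. Cox15, which makes heme A for complex IV, was higher by a log2 fold change of 0.66, and Cox17 was lower by -0.46. Of 20 regulators of mitochondrial biogenesis 14 were higher and 1 lower. Among those higher were Twnk, the mitochondrial DNA helicase (0.47), and Polrmt, the mitochondrial RNA polymerase (0.40), and the lower one was Ppargc1a, the coactivator PGC-1α (-0.33). Most of the regulators called and most of the subunits called thus had opposite signs between batches. Exon length, which went along with the batch difference, was not compared between these lists, and its part was not tested.

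The batch difference of 1 member, Ndufb10, was unlike between genotypes by the test of the genotype by batch interaction (F = 6.71 in edgeR, adjusted p = 0.0429), where 4.92% of all genes were called. Ndufb10 (ENSMUSG00000040048), at chr17:24722060-24724478 on the minus strand of GRCm38, encodes an accessory subunit of the membrane arm. It had 755, 678 and 767 CPM in batch 2 and 923, 931 and 958 CPM in batch 1 of FKl/l MHC+. FKl/l MCK+ had 749, 754 and 827 CPM in batch 2 and 636, 681 and 800 CPM in batch 1. In MHC CRE Only it had 732, 702 and 664 CPM in batch 2 and 956, 836 and 752 CPM in batch 1, and in FKl/l 754, 804 and 816 CPM in batch 2 and 805, 798 and 742 CPM in batch 1. So batch 2 was the lower one in FKl/l MHC+ and MHC CRE Only, with log2 differences of -0.35 and -0.28, and the difference was 0.14 in FKl/l MCK+ and 0.018 in FKl/l. The call was lost in 17 of 24 fits that left out 1 library (adjusted p up to 0.0945) and without the 3 doubted libraries (0.0690), and also with RLE size factors, with a minimum of 5 CPM and without TMM (up to 0.203). Of those fits it held only in the ones without FKl/l 1-1, 1-2 or 1-3, FKl/l MCK+ 1-3, FKl/l MHC+ 2-1 or 2-3, or MHC CRE Only 1-1. The next members were Cox6c (adjusted p = 0.0650) and Ndufv2 (adjusted p = 0.0920).

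Within genotype and batch, the members varied together, which is given as a description. After subtraction of the mean of each genotype and batch, the 903 pairs of members had a median Pearson correlation of 0.53 over the 24 libraries, from -0.51 to 0.96, and 92.8% were positive. The points share the library and its scaling, and much of this rested on a few libraries. Averaged over the members, the log2 level of MHC CRE Only 1-3 deviated by -0.20 from its group and that of MHC CRE Only 1-1 by 0.16, and in FKl/l the library 1-2 deviated by 0.071 and 1-3 by -0.090. Of the other 20 the one farthest from 0 was FKl/l MHC+ 1-2, at -0.044. Without the 3 doubted libraries the median correlation was 0.30 and 78.2% of pairs were positive. Ndufs1, which also had the opposite batch difference, had a median correlation of -0.20 with the other members, with 34 of 42 negative, and 0.067 without the 3 libraries. Ndufa8, an accessory subunit of complex I, had the highest median correlation, at 0.70 over the 24 libraries.

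In the authors' deposited tables of the 5 genotype comparisons, all 43 members had a statistic of 0 and an adjusted p of 1, and 0 were called. The largest log2 fold change in size of a member in the authors' deposited tables was 0.25, in MHC CRE Only over FKl/l. The test used here sets no minimum fold and would not give a statistic of 0 beside such a value. The authors' calls and those made here are therefore not at like thresholds, and their counts cannot be set against each other. The authors' deposited tables called 23 genes in FKl/l MHC+ over FKl/l, 11 in FKl/l MHC+ over MHC CRE Only, 14 in FKl/l MHC+ over FKl/l MCK+, 2 in FKl/l MCK+ over FKl/l and 1 in MHC CRE Only over FKl/l.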

How the data were processed

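RNA of whole mouse heart was sequenced in 24 libraries, per the labels after TRIzol extraction and with a strand-specific library kit. The authors deposited whole-number read counts per gene, not normalized, and 5 tables of their own comparisons. Per the submitters' processing notes the build was mm10 (GRCm38) and the tools named were STAR and RSEM, with bcl2fastq 2.17, Trim Galore and FastQC named besides. The order of these tools, which annotation was counted and whether counting used the strand are not stated there. Per the file headers the authors' tables give, for each gene, its adjusted p-value and p-value, the test statistic (a score), and on the log2 scale its fold change and mean level. Rows named by a transcript, 3660 of 56384 with 0.873 to 4.28% of a library's counts, were left out.

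The deposited counts were analysed with edgeR 4.0.16 (limma 3.58.1, R 4.3.3): filterByExpr by genotype (16018 genes kept), TMM, and 1 robust quasi-likelihood fit of all 24 libraries with genotype and batch. Adjusted p-values are Benjamini-Hochberg over all genes tested, 2-sided, called under 0.05. An SE is the size of the log2 fold change divided by the square root of F. The interaction fit added 3 terms. Isoform ratios were tested by exact permutation (Python 3.11.15, numpy 2.4.6). The code was tested on simulated data. DESeq2 1.42.0, other scalings and filters, single batches, a replicate block and leaving out libraries were alternatives. Libraries of a genotype differed by more than counting noise (chi-square per degree of freedom from 7.87 between any of them). Promoter windows are those of RefSeq on GRCm38.p6, and gene positions and exon lengths those of GENCODE on GRCm38. The members and lists were chosen with earlier results of these data known. Values per library are given for members called in a genotype comparison or the interaction, for the highest and the lowest log2 fold change in each complex in FKl/l MHC+ over FKl/l, for the highest level per length in each complex and for the isoform pairs. From other lists up to 4 called genes are named.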

Additional observations from a re-analysis of the deposited data

Results flagged for a closer look

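In each genotype the highest and the lowest library were compared with the rest by Dixon's ratio of the gap to the range, whose 95% critical value is 0.625 for 6 libraries. Of 208 groups 3 passed (1.44%), where chance gives about 1 in 20 if all 6 libraries come from one distribution. Here each genotype spans 2 batches that differ for most members, which widens the range, so that rate does not apply as it stands. The Uqcrfs1 level in FKl/l 1-2, at 428.5 CPM, stood above the other FKl/l libraries at 361 to 376 CPM (ratio 0.773). Atp5b in FKl/l 1-1, at 3593 CPM, stood below the others at 4221 to 4530 CPM (ratio 0.67). The sum of the complex V members in FKl/l 1-1, at 6146 CPM, stood below the others at 7012 to 7518 CPM (ratio 0.631). FKl/l 1-1 also had airway markers at a sum of 331 CPM, and their part in these low values was not tested. For Ndufb10 the difference between batches was unlike between genotypes by the interaction test (edgeR, adjusted p = 0.0429), with a log2 difference of -0.35 in FKl/l MHC+ and 0.14 in FKl/l MCK+. The call was lost in 17 of 24 fits that left out 1 library and without the 3 doubted libraries (0.0690).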

How the results depend on the processing

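Counts of 0 members called in the 5 genotype comparisons held under limma voom, the other scalings and filters, the fit without a batch term, the fits of the genotypes compared only, batch 1 alone, the test against a fold of 1.2 and without the 3 doubted libraries. With DESeq2 the count became 1 in FKl/l MHC+ over MHC CRE Only, 1 in MHC CRE Only over FKl/l and 1 in FKl/l MHC+ over FKl/l MCK+. In batch 2 alone it was 2 in FKl/l MHC+ over MHC CRE Only (Uqcrc1 at -0.23 and Cycs at 0.25) and 1 in FKl/l MHC+ over FKl/l MCK+ (Uqcrc1 at -0.27). Leaving out 1 library gave 0 to 1 in FKl/l MHC+ over MHC CRE Only, where Ndufb3 passed without FKl/l MHC+ 2-1 (adjusted p = 0.0461), and 0 in the other 4. In batch 1 alone the members' median was 0.069 in FKl/l MHC+ over FKl/l, 0.12 over MHC CRE Only and 0.12 over FKl/l MCK+.

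The batch count of 34 became 21 without TMM and 11 against a fold of 1.2, and lay at 34 to 35 when 1 library was left out, and the median became -0.066 without TMM. Interaction calls were 3 with DESeq2, 2 with no low count filter, 0 with RLE size factors, 0 without TMM, 0 at 5 CPM in at least 6 libraries, 0 without the 3 doubted libraries and 0 to 3 when 1 was left out. For isoform ratios 1 passed when permuted over both batches together, and 0 when 1 library was left out. With labels moved within batches, a single ratio at the smallest p could not pass alone.

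Some small differences took the other sign. In FKl/l MHC+ over FKl/l, Cycs was at 0.0017 with DESeq2, 0.0016 with RLE size factors, 0.0082 without mitochondrially encoded genes, 0.025 in batch 2 alone, 0.0040 without the 3 doubted libraries and -0.062 to 0.028 when 1 was left out. Ndufv2 (-0.087) and Ndufb10 (-0.11) turned in batch 2 alone and Atp5b (0.069) in batch 1 alone. For batch 2 over batch 1 without TMM, Uqcrfs1 was at 0.13, Cycs at 0.034, Cox7a2 at 0.027 and Ndufb10 at 0.065, and Atp5a1 was at -0.0027 at 5 CPM and -0.0043 to 0.044 when 1 was left out. The cause was not tested.

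Deviations of same-numbered libraries were weakly correlated (36 pairs, correlations from -0.24 to 0.16, 3 over 0.1). Weak correlation of levels cannot show whether the numbers stand for pairs, and pairs of unlike numbers were not compared. With the replicate block 0 members were called in each genotype comparison. The members' medians were -0.017 in FKl/l MHC+ over FKl/l, 0.041 over MHC CRE Only and 0.023 over FKl/l MCK+. They were -0.029 in FKl/l MCK+ over FKl/l and -0.036 in MHC CRE Only over FKl/l. With that block 0 isoform ratios passed (smallest exact adjusted p 0.117). The block leaves the ratio test few arrangements, so a single ratio at its smallest p could not pass alone. That count therefore cannot decide whether the ratios differ.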
